A study of Mus musculus with 14 samples.

Results

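Myc and Cdkn1b are 2 genes of the 472 read in a targeted panel. They were chosen by name, as regulators of proliferation, with earlier results of these data known. Both were followed through 14 clones of embryonic stem cells of a female hybrid mouse line, F1 2-1, with 1 parent of strain 129 and the other Castaneus (CAST), so that sequence differences tell the parental copies apart. In 8 clones the enhancer called Chen2008-1 had been deleted and in 6 clones the enhancer Chen2008-25, and poly(A)+ RNA was sequenced after probes had enriched the panel's transcripts. Of the Chen2008-1 clones, 6 were labelled Het (+/-) (B8, D3, E3, E7, G3 and H7) and 2 Het (-/+) (D2 and D10). Of the Chen2008-25 clones, 5 were labelled KO (-/-) (B4, C4, G2, H2 and H4) and 1 Het (-/+) (E6). The signs are read here as 129 before CAST, so that +/- means deleted on CAST. All clones derive from 1 parental F1 line and were grown without serum, with leukaemia inhibitory factor (LIF) and inhibitors of the kinases MEK and GSK3. As every clone carries 1 of these deletions, each set served as the comparison for the other. The study asks whether a deletion acts on the copy of a gene on its own chromosome or on both copies. Enhancer, origin of the clones and culture cannot be told apart between the sets. The same holds for a tag in the headers of the count columns, which differs between the sets and whose meaning is not given. The number of deleted copies also goes with the set, except in E6. All 8 Chen2008-1 clones are heterozygous, and 5 of the 6 Chen2008-25 clones are KO, so a comparison of the sets also compares these genotypes.

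Myc encodes a transcription factor that pairs with MAX on E-box sequences and drives growth, ribosome production and entry into the cell cycle. Its RNA and protein are short-lived, LIF signalling raises its transcription, and phosphorylation by GSK3 marks the protein for destruction. Cdkn1b encodes p27Kip1, an inhibitor of cyclin-dependent kinases that holds cells before DNA replication. Forkhead (FOXO) factors activate its transcription, MYC is known to oppose it, and its protein is removed through the ubiquitin ligase subunit SKP2. Embryonic stem cells are known for a short first gap phase of the cell cycle, in which these opposing activities meet. The length of that phase in the cultures used here was not measured.

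Myc lies on chromosome 15 and Cdkn1b on chromosome 6. The RefSeq promoter table, on build GRCm38.p6, held 1 promoter for Cdkn1b and 0 for Myc. Promoters of both genes were to be shown, so the Cdkn1b sequence is given alone. It covers the 250 bases before the annotated start on the plus strand, chr6:134920151-134920400, in the reference strain, which is neither 129 nor CAST. Capitals mark the match to a searched motif.
Cdkn1b: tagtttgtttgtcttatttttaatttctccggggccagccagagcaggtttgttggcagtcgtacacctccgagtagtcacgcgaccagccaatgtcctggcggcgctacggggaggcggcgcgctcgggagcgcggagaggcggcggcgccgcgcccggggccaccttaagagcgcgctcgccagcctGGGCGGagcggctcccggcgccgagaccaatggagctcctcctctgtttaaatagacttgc
G and C made up 64.4% of these bases, against a median of 52.4% over 32851 promoter windows of the same length. On either strand the window held 1 GC box (GGGCGG), which 32.7% of all windows held. It held 0 matches to the E-box CACGTG (in 6.02% of all windows), 0 to TATAAA (12.4%) and 0 to the forkhead sequence TGTTTAC (3.17%). These matches describe letters and not binding sites.

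Total allelic reads ran from 135881 (D10) to 1331965 (D3) per clone, with medians of 730088 in the Chen2008-1 set and 573287 in the Chen2008-25 set. Myc had 247 to 3152 reads per clone and Cdkn1b 564 to 5809, so both were far above the minimum mean of 10 reads set for testing. The reading of the genotype signs was checked on 1 gene for each enhancer. That check assumes that a deletion lowers the copy on its own chromosome, so it is no test of that question. The 129 share of Trim28 was 65.0 to 69.7% in the clones deleted on CAST, 29.0 to 31.3% in the clones deleted on 129 and 48.9 to 50.3% in the Chen2008-25 clones. B3gnt7 was at 424 to 491 CPM (allelic reads scaled as described below) in the KO clones, 953 CPM in E6 and 1375 to 2225 CPM in the Chen2008-1 clones, with a 129 share of 26.0% in E6. Of the 12 listed markers of pluripotent cells, 12 of early lineages and 8 of feeder fibroblasts, 0 were in the panel, so the labelled cell type could not be checked. Reads from poly(A)+ RNA of whole cultures cannot tell fewer cells expressing a gene from less RNA per cell.

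Both genes were higher in the clones with the Chen2008-1 deletion than in those with the Chen2008-25 deletion. Levels are given as CPM, the allelic reads of a gene scaled to a common library size with trimmed mean of M-values (TMM) factors. Myc, summed over both copies, was at 2120 CPM in B8, 1952 in D10, 2684 in D2, 1834 in D3, 1821 in E3, 2310 in E7, 2164 in G3 and 1659 in H7. In the Chen2008-25 clones Myc was at 1222 CPM in B4, 1434 in C4, 1529 in E6, 1296 in G2, 713 in H2 and 961 in H4. The sets did not overlap: the lowest Chen2008-1 clone, H7, stood above the highest Chen2008-25 clone, E6. The means were 2068 CPM ± 326 (SD, n = 8) and 1192 CPM ± 306 (SD, n = 6). Myc was thus 1.74-fold higher in the Chen2008-1 set (95% interval 1.41 to 2.15, log2 difference 0.80, SE 0.14, edgeR adjusted p = 9.81e-05).

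Cdkn1b, the brake on the cell cycle, was higher in the same clones as Myc. In the Chen2008-1 set its summed level was 3428 CPM in B8, 4457 in D10, 3842 in D2, 4124 in D3, 3866 in E3, 4330 in E7, 3854 in G3 and 3867 in H7. In the Chen2008-25 set it was 2339 CPM in B4, 2557 in C4, 2767 in E6, 2481 in G2, 2043 in H2 and 2326 in H4. Again the sets did not overlap, and H2 was the lowest and E6 the highest Chen2008-25 clone for both genes. The means were 3971 CPM ± 324 (SD, n = 8) and 2419 CPM ± 245 (SD, n = 6), a 1.64-fold difference (95% interval 1.48 to 1.81, log2 0.71, SE 0.07, edgeR adjusted p = 9.05e-08). Differences between the sets were common in the panel: 63.8% of the 448 genes tested passed the threshold of 0.05, 34.4% as higher in Chen2008-1 (154 genes) and 29.5% as lower, so a pass is no mark of these genes. By size, 101 genes had a larger absolute difference than Myc and 118 a larger one than Cdkn1b. The median over all tested genes was 0.01. Permuting the set labels over clones gave p = 0.000333 for each gene in the exact two-sided test on log2(CPM + 1), the smallest that the 3003 splits allow. How many of the 448 genes also separated fully or reached that value was not counted, so neither is read as a mark of these genes.

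**Figure D1:**
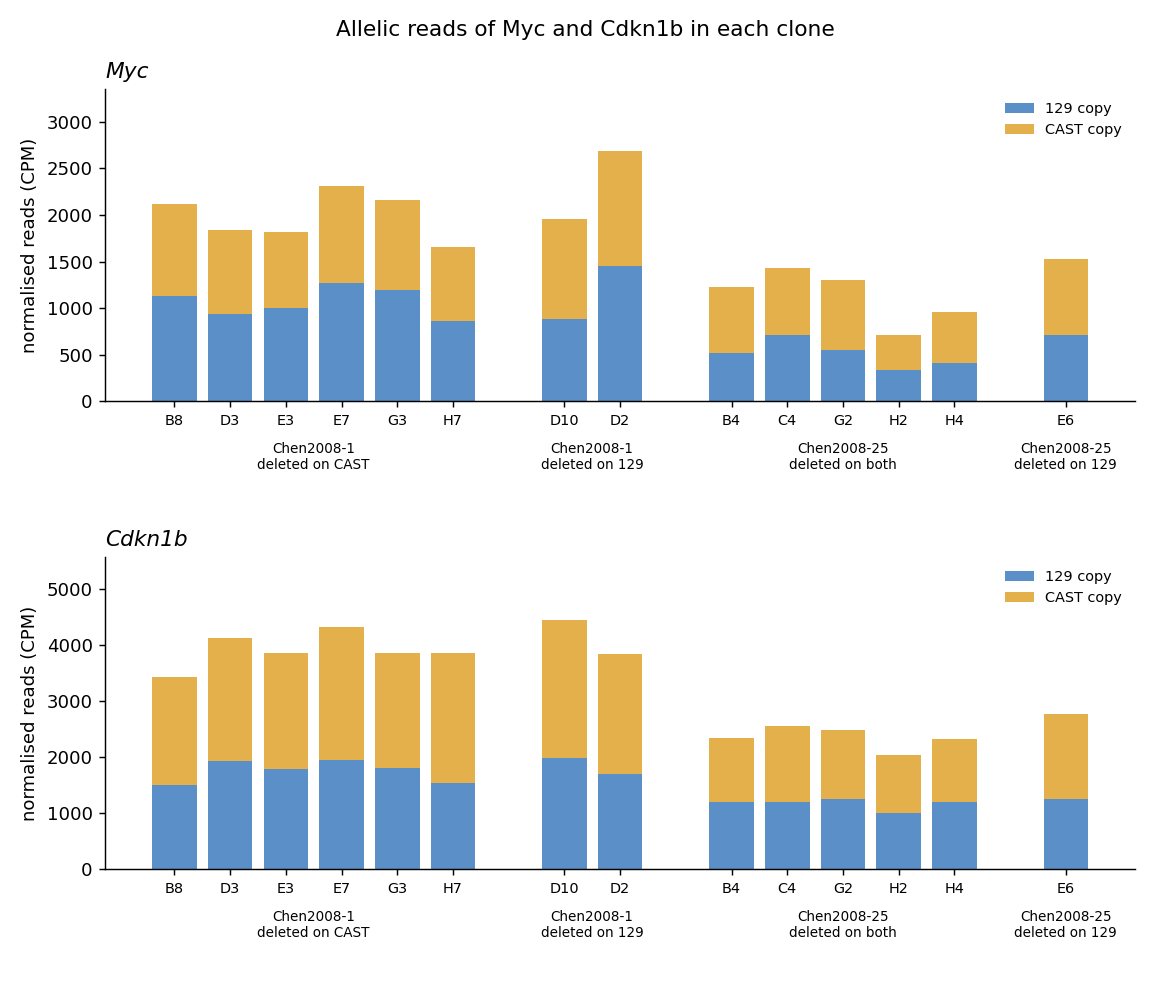
Normalised allelic reads (CPM) of Myc (top) and Cdkn1b (bottom) in each of the 14 clones, with the 129 copy in blue and the CAST copy stacked above it in yellow, grouped by enhancer and genotype. Every Chen2008-1 bar is taller than every Chen2008-25 bar for both genes, and H2 is the shortest bar in each panel.

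In these clones the relative spread was larger for Myc than for Cdkn1b in both sets. Within the sets the coefficient of variation of Myc was 15.8% (Chen2008-1) and 25.6% (Chen2008-25), and that of Cdkn1b 8.16% and 10.1%. In the Chen2008-25 set the highest clone had 2.15 times the Myc of the lowest, against 1.35 times for Cdkn1b. Whether the spreads of the genes differ was not tested. The number of Myc reads per Cdkn1b read within a clone, which needs no scaling between libraries, averaged 0.524 ± 0.0974 (SD, n = 8) in the first set and 0.487 ± 0.0858 (SD, n = 6) in the second. These ratios overlapped, and the log2 difference of 0.11 did not pass (exact two-sided permutation test, p = 0.467). The ratio was added after the values were seen, and it compares clones and not the abundance of the genes.

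The parental copies did not contribute equally to the difference in Myc. From the 129 chromosome, Myc reached 863 to 1448 CPM (median 1063) with Chen2008-1 deleted and 330 to 710 CPM (median 536) with Chen2008-25 deleted, and these ranges did not overlap. On the CAST chromosome the ranges were 797 to 1235 CPM (median 980) and 383 to 820 CPM (median 714), and H7 of the Chen2008-1 set fell below E6. The 129 copy of Myc was 2.05-fold higher in the Chen2008-1 set (log2 1.03, SE 0.16, edgeR adjusted p = 1.78e-05). The CAST copy was 1.5-fold higher (log2 0.59, SE 0.14, edgeR adjusted p = 0.00144).

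For Cdkn1b it was the CAST copy that differed more. That copy was at 1916 to 2473 CPM (median 2166) in the Chen2008-1 set, above the 1035 to 1504 CPM (median 1185) of the Chen2008-25 set. Its 129 copy was at 1511 to 1983 CPM (median 1804) and 1008 to 1263 CPM (median 1205). Neither copy of Cdkn1b overlapped between the sets. The CAST copy was 1.78-fold higher in Chen2008-1 (log2 0.83, SE 0.08, edgeR adjusted p = 1.10e-07) and the 129 copy 1.5-fold (log2 0.58, SE 0.08, edgeR adjusted p = 2.44e-06). In the panel, 56.6% of 412 genes passed on the 129 copy (30.3% as higher) and 59.7% of 395 genes on the CAST copy (33.2% as higher). How many panel genes separated fully on either copy was not counted.

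The share of reads from the 129 copy therefore differed between the sets in opposite directions for Myc and Cdkn1b. The 129 share of Myc was 53.1% in B8, 44.9% in D10, 54.0% in D2, 51.2% in D3, 54.9% in E3, 54.8% in E7, 55.4% in G3 and 52.0% in H7. In the Chen2008-25 clones it was 42.5% in B4, 49.5% in C4, 46.4% in E6, 42.7% in G2, 46.3% in H2 and 42.2% in H4. Thus 7 of 8 Chen2008-1 clones read more Myc from 129 than from CAST, and 0 of 6 Chen2008-25 clones did. D10, the clone with the fewest reads, was the exception, with 111 of 247 Myc reads from 129 (Wilson interval 38.9 to 51.2%). The mean shares were 52.5% ± 3.40 (SD, n = 8) and 44.9% ± 2.94 (SD, n = 6). The ratio of 129 to CAST reads of Myc was 1.37-fold higher in the Chen2008-1 set (95% interval 1.21 to 1.55, log2 0.46, SE 0.09, edgeR adjusted p = 0.00119). Exact permutation of the sets over clones, two-sided, gave p = 0.00233 for the share.

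Cdkn1b went the other way, with a lower 129 share in the Chen2008-1 clones. It was 44.1% in B8, 44.5% in D10, 44.3% in D2, 46.8% in D3, 46.4% in E3, 45.3% in E7, 47.1% in G3 and 39.7% in H7. In the Chen2008-25 clones it was 51.4% in B4, 47.3% in C4, 45.7% in E6, 50.3% in G2, 49.4% in H2 and 51.6% in H4. All 8 Chen2008-1 clones read less Cdkn1b from 129 than from CAST, while 3 of 6 Chen2008-25 clones read more, and E6 was the only Chen2008-25 clone within the range of the Chen2008-1 set. The mean shares were 44.8% ± 2.35 (SD, n = 8) and 49.3% ± 2.36 (SD, n = 6). The ratio of 129 to CAST reads was 0.843 times that of the Chen2008-25 set (95% interval 0.763 to 0.931, log2 -0.25, SE 0.07, edgeR adjusted p = 0.0205). This call was lost without clone B4 (log2 -0.22, edgeR adjusted p = 0.0667) and without H4 (log2 -0.22, edgeR adjusted p = 0.0511), and over all alternatives the adjusted p ran from 0.00678 to 0.0667. Exact permutation, two-sided, gave p = 0.00366 for the share.

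**Figure D2:**
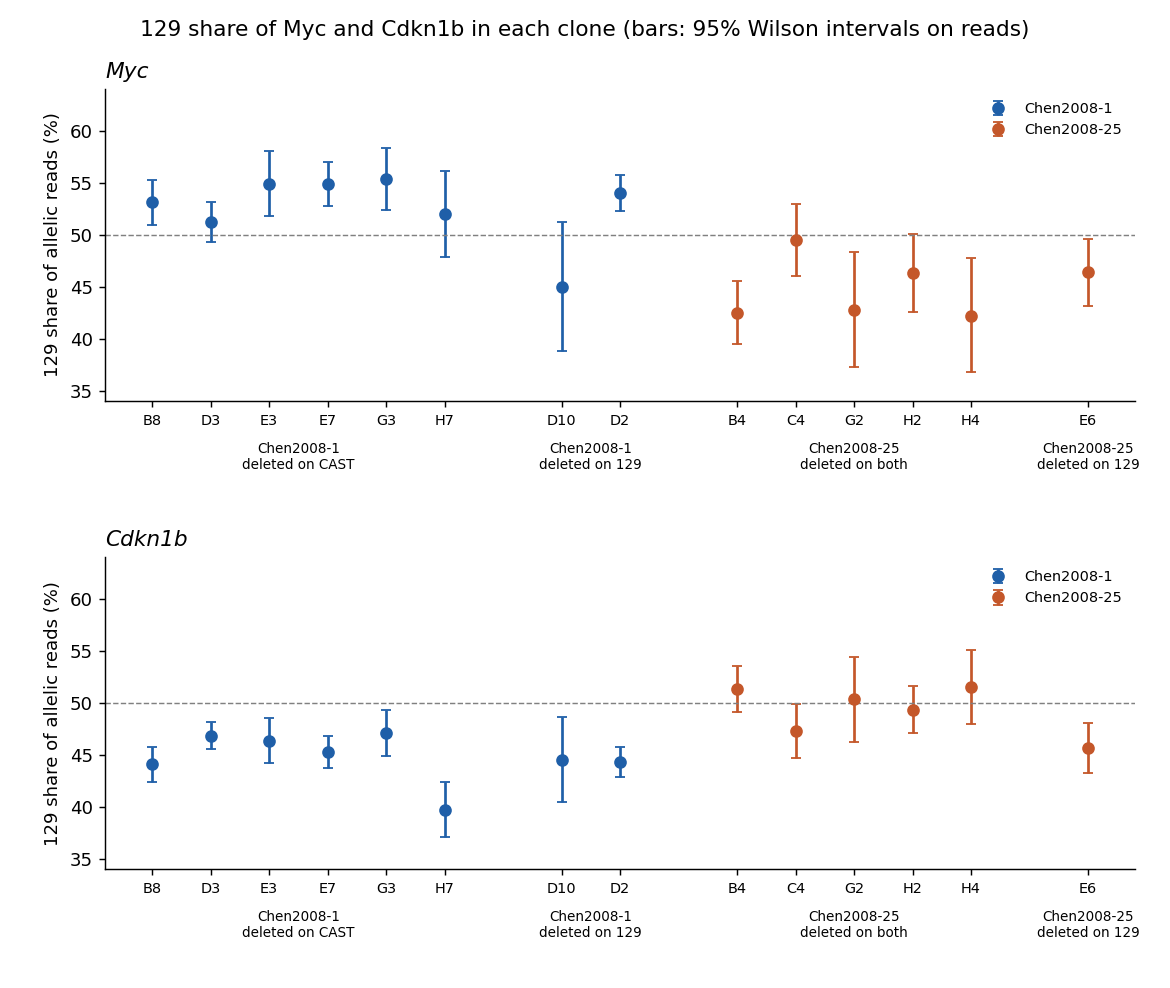
Share of allelic reads from the 129 copy (%, axis from 34 to 64) of Myc (top) and Cdkn1b (bottom) in each clone, with 95% Wilson intervals on reads and a dashed line at 50%. Of the Chen2008-1 clones (blue), 7 of 8 lie above the line for Myc and 0 of 8 for Cdkn1b, and of the Chen2008-25 clones (orange) 0 of 6 lie above it for Myc and 3 of 6 for Cdkn1b.

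Differences in allelic ratio between the sets were less common than differences in level. In the panel 12.1% of the 448 genes tested passed, 6.25% (28 genes) with a higher and 5.8% (26 genes) with a lower ratio of 129 to CAST reads in Chen2008-1, and Myc and Cdkn1b were among them. An absolute difference larger than that of Myc was found in 82 genes, and larger than that of Cdkn1b in 164. The shift in mean 129 share was 7.62 percentage points for Myc and -4.48 points for Cdkn1b, each larger in size than the SD of its clones within either set. Over 427 panel genes the median SD within a set was 4.03 points. The Wilson intervals cover counting error only. In each clone 79.1 to 88.6% of the counts from 1 to 19 were even, so reads are not independent molecules and the intervals are too narrow.

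**Figure D3:**
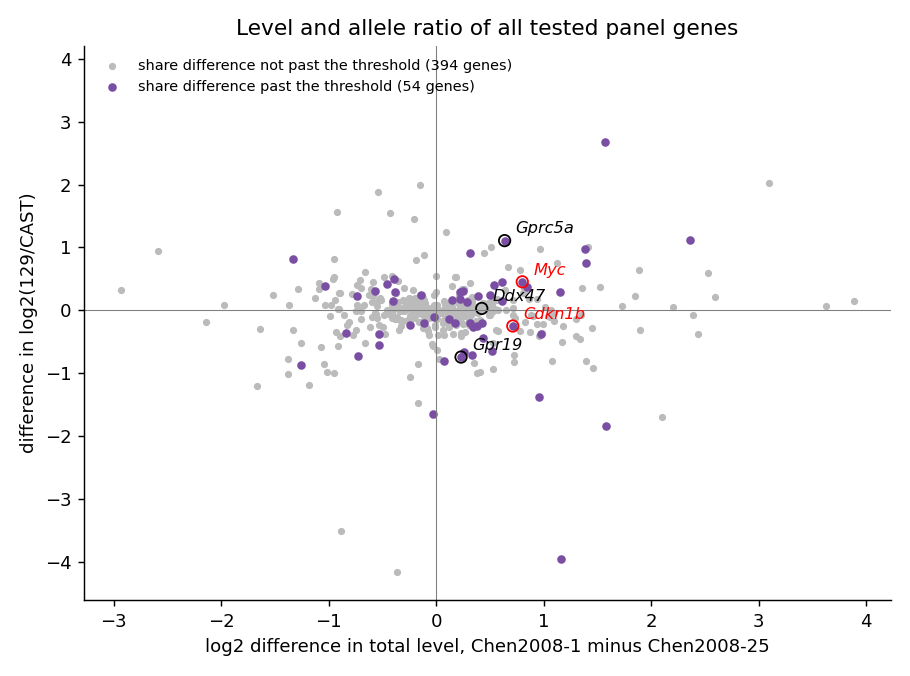
Difference in total level (horizontal, log2) against difference in the log2 ratio of 129 to CAST reads (vertical), both Chen2008-1 minus Chen2008-25, for 448 tested genes, each a point. Myc (0.80 and 0.46) and Cdkn1b (0.71 and -0.25) share the right side of the plot but lie on opposite sides of the horizontal line, and purple points are the 54 genes whose ratio passed the threshold, with black circles on 3 neighbours of Cdkn1b.

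Over all 14 clones the copies of Myc lay close to balance and those of Cdkn1b did not. The log2 ratio of 129 to CAST reads of Myc was -0.01 (95% interval -0.15 to 0.13, edgeR adjusted p = 0.943), an average over sets that lay on either side of balance. For Cdkn1b it was -0.20 (95% interval -0.29 to -0.10, edgeR adjusted p = 0.000583). In the panel 72.3% of genes passed this test, 40% toward 129 and 32.4% toward CAST, and 439 of the 448 genes had a larger absolute ratio than Myc. A bias of read assignment toward a strain was not tested.

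The deleted chromosome made no detectable difference to either gene within the Chen2008-1 set. Myc was at 1985 CPM ± 249 (SD, n = 6) in the clones deleted on CAST and at 1952 and 2684 CPM in D10 and D2, deleted on 129 (log2 difference 0.24, 95% interval -0.18 to 0.66, edgeR adjusted p = 0.998). Cdkn1b was at 3911 CPM ± 304 (SD, n = 6) in the former and at 4457 and 3842 CPM in D10 and D2 (log2 0.08, interval -0.13 to 0.29, edgeR adjusted p = 0.998). The 129 share of Myc was 53.6% ± 1.73 (SD, n = 6) with deletions on CAST, beside the 44.9% of D10 and the 54.0% of D2 (log2 ratio difference -0.12, interval -0.38 to 0.15, edgeR adjusted p = 0.994). That of Cdkn1b was 44.9% ± 2.77 (SD, n = 6), beside 44.5 and 44.3% (log2 -0.04, interval -0.24 to 0.15, edgeR adjusted p = 0.994). The direction of the level difference depends on 1 clone for each gene: it was -0.07 for Myc without D2 and -0.03 for Cdkn1b without D10. The ratio difference of Myc also rests on these clones, at -0.50 without D2 (edgeR adjusted p = 0.366) and 0.02 without D10. In these contrasts 0% of genes passed for level in edgeR and in DESeq2 (13 genes had an unadjusted p below 0.05 in edgeR), and 0.893% passed for the ratio. With 2 clones deleted on 129, the intervals allow levels up to 1.58-fold higher for Myc and 1.22-fold higher for Cdkn1b than in the clones deleted on CAST.

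Within the Chen2008-25 set the heterozygous clone E6 had the highest level of both genes. The KO clones averaged 1125 CPM ± 288 (SD, n = 5) for Myc, against 1529 CPM for the single clone E6 (log2 KO minus E6 -0.45, 95% interval -1.0 to 0.10, edgeR adjusted p = 0.824). For Cdkn1b they averaged 2349 CPM ± 197 (SD, n = 5), against 2767 CPM (log2 -0.24, interval -0.51 to 0.03, edgeR adjusted p = 0.822). The 129 share of Cdkn1b in E6, 45.7% (761 of 1667 reads, Wilson interval 43.3 to 48.0%), was below all 5 KO clones (47.3 to 51.6%), with a log2 ratio difference of 0.24 (interval -0.02 to 0.51, edgeR adjusted p = 0.797). For Myc, the 129 share in E6 lay inside the KO range (log2 -0.08, interval -0.44 to 0.28, edgeR adjusted p = 1). None of these passed, 0.223% of genes did for level and the same percentage for ratio, and E6 is a single clone assumed to vary like the others. Without E6 the ratio of Cdkn1b differed between the sets by -0.29 (edgeR adjusted p = 0.00894) and that of Myc by 0.47 (edgeR adjusted p = 0.00239).

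The relation of Myc to Cdkn1b across clones was close in the Chen2008-25 set. There the order of the clones was the same for both genes, from H2 through H4, B4, G2 and C4 up to E6 (Spearman rho 1, exact permutation p = 0.00278, adjusted over 8 relations 0.0222, n = 6). Pearson's r of the log2 levels was 0.95 (exact permutation p = 0.00139, adjusted 0.0111, n = 6), and 0.97 over the 4 clones left without H2 and H4. In the Chen2008-1 set no such order was seen (r = -0.07, exact permutation p = 0.873, adjusted 0.873, rho = -0.26, exact p = 0.536, adjusted 0.536, n = 8). Without D2 and H7 r was -0.05. With total reads in place of TMM scaling the Chen2008-1 value changed sign, to 0.24. The difference between the sets in this relation was not tested, and values of a clone share a library and its scaling. The sets stood apart in both genes, so no r over all 14 clones is given without taking the set means away.

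**Figure D4:**
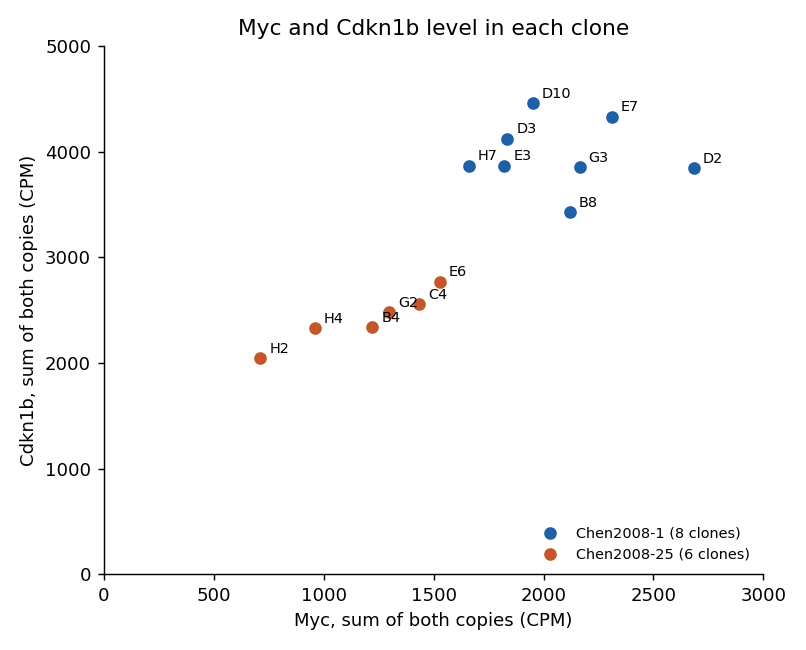
Level of Myc (horizontal, CPM) against Cdkn1b (vertical, CPM), summed over both copies, in each clone. The 6 Chen2008-25 clones (orange) line up from H2 to E6, and the 8 Chen2008-1 clones (blue) lie above and to the right with no order.

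Across clones the parental copies of a gene had positive correlations in both sets, and few of these passed. In the Chen2008-25 set the 129 and CAST levels of Myc had r = 0.92 (exact permutation p = 0.00833, adjusted 0.0333, rho = 0.83, exact p = 0.0583, adjusted 0.117, n = 6). That r fell to 0.60 without H2 and H4 and so rests on those clones. In the Chen2008-1 set r was 0.69 (exact permutation p = 0.0615, adjusted 0.123, rho = 0.60, exact p = 0.132, adjusted 0.176, n = 8), and 0.19 without D2 and H7. For the copies of Cdkn1b r was 0.73 in Chen2008-25 (exact permutation p = 0.0986, adjusted 0.158, rho = 0.94, exact p = 0.0167, adjusted 0.0444, n = 6), and 0.32 without E6 and H2. In Chen2008-1 it was 0.52 (exact permutation p = 0.194, adjusted 0.259, rho = 0.67, exact p = 0.0831, adjusted 0.133, n = 8), and 0.77 without B8 and H7.

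The 129 shares of the genes ran against each other in the Chen2008-25 clones, where B4, G2 and H4 had the lowest Myc shares and the highest Cdkn1b shares. Spearman's rho was -0.94 (exact permutation p = 0.0167, adjusted 0.0444, n = 6), while Pearson's r of -0.81 did not pass (exact permutation p = 0.0542, adjusted 0.123, n = 6) and was -0.79 without C4 and H4. In the Chen2008-1 clones r was 0.22 (exact permutation p = 0.515, adjusted 0.589, rho = 0.43, exact p = 0.299, adjusted 0.342, n = 8). Without D10 and D3, the clones farthest from the median Myc share, r was 0.95 over 6 clones. That value depends on leaving those clones out and carries no test.

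The nearest panel gene to Myc on chromosome 15 did not show its difference. Among the panel rows matched to RefSeq, Myc is the first on that chromosome, and the next 3 are Pvt1, H2afy3 and Ptp4a3. Pvt1, a long noncoding RNA whose locus is known for elements that act on Myc, is a row shared with the transcript linc1476. Its level was 632 to 814 CPM (median 743) in the first set and 665 to 811 CPM (median 750) in the second, ranges that overlapped almost entirely. Its log2 difference was -0.02 (95% interval -0.18 to 0.13, edgeR adjusted p = 0.806), and that of its allelic ratio 0.25 (interval -0.05 to 0.54, edgeR adjusted p = 0.352). The reads of Myc per read of Pvt1 had a geometric mean of 2.81 with Chen2008-1 deleted and 1.55 with Chen2008-25 deleted, with no overlap (exact two-sided permutation test, p = 0.000333). This ratio, too, was added after the values were seen. As Pvt1 hardly differed, the ratio largely restates the difference in Myc, and its p-value is no separate support.

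The other neighbours of Myc differed in their own ways. H2afy3, a histone macroH2A pseudogene inside the Pvt1 span, had 277 reads over all clones and was lower by -0.66 on the log2 scale (SE 0.26, edgeR adjusted p = 0.0301), a call lost without E3, B4 or H2 (edgeR adjusted p up to 0.0737). Whether its reads and those of Pvt1 can be separated depends on whether counting used strand, which the sources used here do not give. Ptp4a3, a protein tyrosine phosphatase gene farther along, was higher in the Chen2008-1 clones by 0.34 (SE 0.11, edgeR adjusted p = 0.0106). Its ratio of 129 to CAST reads was lower, by -0.26 (SE 0.08, edgeR adjusted p = 0.0336), opposite in sign to that of Myc, and that call was lost on leaving out any of 9 clones.

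Of the 5 neighbours of Cdkn1b on chromosome 6 that could be tested, 4 passed for level (3 higher and 1 lower in Chen2008-1) and 2, Gpr19 and Gprc5a, for allelic ratio, where 63.8% and 12.1% of all genes passed. On its left in RefSeq order lie Crebl2, Gpr19 and the noncoding 2810454H06Rik, and on its right Apold1, Ddx47 and Gprc5a. Ddx47, which encodes an RNA helicase of ribosome assembly, was higher in the Chen2008-1 clones by 0.42 (SE 0.05, edgeR adjusted p = 1.58e-06) while its 129 share was 44.5% ± 1.02 (SD, n = 8) and 44.0% ± 0.939 (SD, n = 6), a log2 ratio difference of 0.03 (95% interval -0.05 to 0.11). Gpr19, an orphan receptor gene, was higher by 0.23 (SE 0.07, edgeR adjusted p = 0.00979), a call lost without the clones deleted on 129 (0.17, edgeR adjusted p = 0.0528). Its ratio differed by -0.74 (SE 0.08, edgeR adjusted p = 4.72e-06), the same sign as that of Cdkn1b. Gprc5a, another orphan receptor gene, was higher by 0.64 (SE 0.07, edgeR adjusted p = 2.74e-07), with a ratio difference of the opposite sign to Cdkn1b (1.11, SE 0.15, edgeR adjusted p = 3.45e-05). Crebl2, a CREB-like factor gene, was lower by -0.48 (SE 0.15, edgeR adjusted p = 0.00928). Apold1 had 176 reads over all clones and did not pass (0.27, SE 0.35, edgeR adjusted p = 0.508), and 2810454H06Rik, with 113 reads, was not tested.

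**Figure D5:**
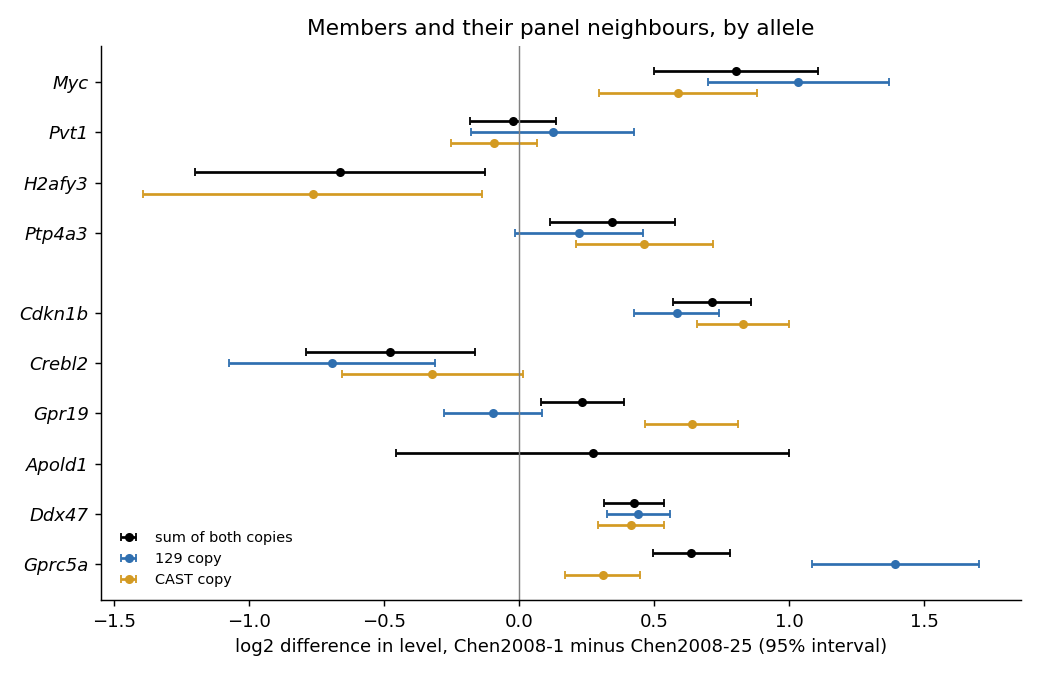
Log2 difference in level, Chen2008-1 minus Chen2008-25, with 95% intervals, for Myc, Cdkn1b and their tested panel neighbours, for the sum of both copies (black), the 129 copy (blue) and the CAST copy (yellow). All intervals of Myc and Cdkn1b lie above 0, those of Pvt1 span 0, and Gpr19 differs on the CAST copy while Gprc5a differs most on the 129 copy.

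Few other genes of these pathways were in the panel. Of 27 listed cyclins, kinases, inhibitors and pocket proteins of the first gap and replication phases 0 were measured, as were 0 of 16 listed regulators of p27Kip1. Of 22 genes of the MYC network 1 was measured, Pvt1. The list of growth and ribosome genes often given as MYC-activated had 6 of 35 members in the panel, all tested, of which 2 were higher and 3 lower in the Chen2008-1 clones (median log2 difference -0.08, against 0.01 over all genes). Over all genes tested 34.4% were higher and 29.5% lower. Ncl, which encodes the ribosome assembly protein nucleolin, was lower in the Chen2008-1 clones by 0.91 (SE 0.08), and Utp6, of the same process, by 0.70 (SE 0.05). The proline synthesis gene Pycr1 was higher there by 1.30 (SE 0.08) and the lactate transporter gene Slc16a3 by 3.63 (SE 0.26). Each of the 4 had an edgeR adjusted p of at most 1.74e-08.

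The replication and mitosis list had 3 of 23 members in the panel. The DNA ligase gene Lig1 was higher in the Chen2008-1 clones by 0.29 (SE 0.05, edgeR adjusted p = 4.59e-05) and the fork repair gene Tonsl by 0.52 (SE 0.05, edgeR adjusted p = 1.02e-07). Atad5, which unloads the replication clamp, was lower there by 1.03 (SE 0.10, edgeR adjusted p = 1.01e-07). The median of these 3 genes was 0.29, against 0.01 over all genes, of which 34.4% were higher and 29.5% lower.

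With the mean of each set taken away, the panel genes most like Myc across the 14 clones were the ubiquitin hydrolase gene Uchl1 (Pearson r 0.92), the cap-binding gene Eif4e2 (0.85) and the RhoA exchange factor gene Net1 (0.78). Most like Cdkn1b were the noncoding linc1654 (0.87), the cytolinker gene Plec (0.86) and the non-muscle myosin gene Myh9 (0.83). Between Myc and Cdkn1b r was 0.56, which placed Cdkn1b at rank 44 of 447 genes by likeness to Myc and Myc at rank 37 by likeness to Cdkn1b. That r pools sets whose own r was 0.95 (Chen2008-25) and -0.07 (Chen2008-1). These values describe the clones, which share library depth and scaling, and carry no test.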

How the data were processed

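The deposited count tables hold raw read counts per gene in a 129 and a CAST column for each clone, per the file headers. Per the submitters' processing notes, the build used was mm9. The aligner, the rule for assigning alleles, the counter and its use of strand are not given in the sources used here. Genotypes came from the deposited genotype table, in which all clones have the same hybrid selection batch and probe set, and the order of its signs is not stated there. The headers of the count columns hold a tag that is shared by all clones of a set and differs between the sets. Its meaning is not given. Of 2 rows with the same counts in every clone (Tsix), 1 was left out. Positions by order came from RefSeq genes of GRCm38.p6 (of 471 rows, 425 matched by symbol and 27 by older symbol). The remaining rows had no position, so neighbours are the nearest among the matched rows.

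Tests ran in R 4.3.3 with edgeR 4.0.16 (quasi-likelihood), with limma 3.58.1 and DESeq2 1.42.0 as alternatives. Genes with a mean of at least 10 reads per clone were tested. Totals, and each allele scaled by TMM factors of the totals, were compared between sets and genotypes. Allelic ratios were tested on both columns with a term for each clone. Adjusted p-values are Benjamini-Hochberg over all genes tested, with a threshold of 0.05. The scripts were tested on simulated data. The 26 pairs of clones with the same genotype were compared to look for a library deposited more than once; none held identical counts, and each clone counted as 1 sample. The clones are separate lines of 1 parent, so p-values measure the spread between such lines.

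The text names Myc and Cdkn1b, their 3 nearest panel genes on each side, up to 4 genes of each list by smallest p and the 3 genes most like each. The members and lists were chosen with earlier results of these data known.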

Additional observations from a re-analysis of the deposited data

Results flagged for a closer look

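Over 32 groups of clones looked at for a clone far from its group (level, level of each copy and 129 share of both genes, in sets and genotypes of 5 to 8 clones), 4 had one by Dixon's 95% criterion, where chance gives about 1 in 20. The 129 share of Myc in D10, 44.9%, lay below the other Chen2008-1 clones, on 247 reads. The 129 share of Cdkn1b in H7, 39.7%, lay below the other Chen2008-1 clones. The level of the 129 copy of Cdkn1b in H2, 1008 CPM, lay below the other Chen2008-25 clones and below the other KO clones, which are the same clones but for E6.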

How the results depend on the processing

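The higher levels of Myc and Cdkn1b in the Chen2008-1 set, for totals and for each copy, and the ratio difference of Myc kept their direction and passed under the alternatives run for each. For all of them these were DESeq2, no filter, leaving out E6 and leaving out each clone in turn. Other scaling was run for levels only, limma for totals only, and leaving out both clones deleted on 129 for totals and ratios only. Total differences ran from 0.68 to 0.89 for Myc and from 0.67 to 0.76 for Cdkn1b, and the ratio of Myc from 0.42 to 0.51. With each clone left out in turn, the ratio difference of Cdkn1b ran from -0.29 to -0.21 and lost the call in 2 of 14 fits, without B4 and without H4. The overall ratio of Myc ran from -0.0341 to 0.0287 (6 of 14 fits above 0). Between clones deleted on 129 and on CAST, the level difference ran from -0.0652 to 0.43 for Myc and from -0.0263 to 0.15 for Cdkn1b, the ratio difference of Myc from -0.50 to 0.0236, and the genes past the threshold for ratio from 2 to 4. The ratio difference of Apold1 ran from -0.73 to 0.0335. With total reads alone, r between Myc and Cdkn1b in Chen2008-1 was 0.24 against -0.07, and the cause was not tested. Depth limits the shares most in D10. No paired analysis was possible because clone names carry no replicate number shared between the sets.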
